A study of Homo sapiens with 11 samples.

Results

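SCC9 cells that had received cisplatin and nimesulide together were compared with SCC9 cells that had received neither agent. SCC9, which the labels also spell SSC9, is an established human cell line of tongue squamous carcinoma, and 5 of the 11 Affymetrix U133A arrays of the study enter this comparison, chosen by their sample titles. They are combination arrays A and B, from cells given 0.5 µmol/L cisplatin with 100 µmol/L nimesulide, and control arrays A, B and C, from dishes handled alike with no compound. The other 6 arrays, 3 with cisplatin alone at 0.5 µmol/L and 3 with nimesulide alone at 100 µmol/L, help to estimate the spread and are set beside the combination below. All groups are bulk RNA of 1 cell line, the duration of treatment is not given in the sources used here, and a combination array C was not analysed here.

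Cisplatin is a platinum drug that crosslinks DNA, and nimesulide is an anti-inflammatory drug that preferentially inhibits cyclooxygenase-2, the inducible enzyme that starts prostaglandin synthesis. Interferon-stimulated genes are switched on when interferon binds its receptor and transcription factors that include IRF9 bind response elements in their promoters, and many carcinoma lines keep some of these antiviral genes on without added interferon. ATF4 is a transcription factor that is translated more under a lack of amino acids or under stress of the endoplasmic reticulum, and with CEBP partners it induces genes of amino acid synthesis, amino acid uptake and tRNA charging.

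Values are log2 intensities per probe set, so a difference of 1 is a doubling. The 5 arrays correlated at 0.996 to 0.998 with each other over 16383 probe sets. Of the 7 keratinocyte markers measured, CDH1, the adhesion protein of epithelia, was at 10.56 to 10.77 and SFN at 10.45 to 10.57. KRT14, a keratin of basal cells, was low at 4.60 to 5.51, around the array medians of 5.37 to 5.43. Among markers of other cells, the 6 fibroblast genes lay at 2.76 to 5.57, the 4 leukocyte genes at 4.25 to 6.24, the 5 endothelial genes at 3.12 to 5.40 and the 3 melanocyte genes at 4.07 to 5.05. The deposited protocol gives an RNA concentration of 1.12 and 0.7 µg/µl for combination A and B, the lowest of the 4 treatments in both lettered sets, against 1.59, 1.896 and 0.624 µg/µl for control A, B and C, and its part in the results was not tested.

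Promoters are shown for the interferon and ATF4 lists, which had the lowest and the highest median difference of all lists. They are those of the genes with the largest differences among members with an entry in the RefSeq table, which SLC7A11 and MX2 lack. Sequences are from RefSeq on GRCh38.p14, 250 bases before to 50 bases after the start of the gene on its own strand, and 5′ to 3′. Capitals mark the core of the interferon response element, GAAANNGAA (TTCNNTTTC on the other strand), which was searched on both strands. IFI44L (chr1:78620198-78620497, plus strand) held 2 matches, IFI6 (chr1:27672143-27672442, minus strand) held 3, and MX1 (chr21:41420308-41420607, plus strand) held 2 that overlap each other.
IFI44L: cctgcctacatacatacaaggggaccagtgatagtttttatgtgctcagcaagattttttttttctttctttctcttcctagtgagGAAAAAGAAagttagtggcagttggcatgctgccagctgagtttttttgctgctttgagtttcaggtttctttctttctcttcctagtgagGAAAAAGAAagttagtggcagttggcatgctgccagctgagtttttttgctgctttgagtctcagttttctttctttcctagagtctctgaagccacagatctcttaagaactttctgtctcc
IFI6: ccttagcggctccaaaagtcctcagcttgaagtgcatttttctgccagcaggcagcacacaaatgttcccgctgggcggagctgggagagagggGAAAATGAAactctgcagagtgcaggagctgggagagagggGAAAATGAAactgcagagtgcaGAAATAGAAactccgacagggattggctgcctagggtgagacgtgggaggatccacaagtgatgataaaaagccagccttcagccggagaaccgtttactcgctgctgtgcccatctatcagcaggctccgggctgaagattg
MX1: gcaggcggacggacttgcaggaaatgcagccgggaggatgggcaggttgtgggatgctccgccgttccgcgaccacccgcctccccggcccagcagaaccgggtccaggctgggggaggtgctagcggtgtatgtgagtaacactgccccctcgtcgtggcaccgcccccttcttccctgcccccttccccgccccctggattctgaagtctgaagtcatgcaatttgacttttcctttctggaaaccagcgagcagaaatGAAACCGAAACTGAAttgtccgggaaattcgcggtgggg
This core was present in 19 of 27 interferon list promoters (70.4%), in 1 of 21 promoters of the ATF4 list and in 8.29% of 27305 promoters of this length. A match is a run of letters and says nothing about binding in these cells.

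For the ATF4 list the letters searched were TGATGNAA (TTNCATCA on the other strand), the core of the CEBP-ATF element, on both strands, again in capitals. ASNS (chr7:97872359-97872658, minus strand) held 1 match, which begins at position -68 from the start of the gene.
ASNS: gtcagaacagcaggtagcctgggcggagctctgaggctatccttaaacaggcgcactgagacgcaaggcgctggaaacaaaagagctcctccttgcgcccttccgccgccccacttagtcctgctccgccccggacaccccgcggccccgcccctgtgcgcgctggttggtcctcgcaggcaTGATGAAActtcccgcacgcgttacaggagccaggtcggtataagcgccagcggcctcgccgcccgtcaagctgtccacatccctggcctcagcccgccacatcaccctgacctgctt
The windows of XPOT and CEBPG held none. The core was present in 4 of 21 ATF4 list promoters (19.0%), in 1 of 27 promoters of the interferon list and in 3.67% of all 27305.

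Interferon-stimulated genes had lower means in the cells given both agents for 34 of 35 genes measured, with a median log2 difference of -0.53, and genes of the ATF4 response had higher means for 23 of 25, with a median of 0.25. Over all 8549 genes, 4939 had a lower mean and 3610 a higher one, to be read beside the counts of each list below. With 1 mean per treatment, limma called 0 of 16383 probe sets (0%) for the combination against control at an adjusted p under 0.05, the smallest adjusted p being 0.0962. At an unadjusted p under 0.05 there were 1295 probe sets, 569 higher and 726 lower. The letters A, B and C follow the deposited protocol, in which RNA was prepared in lettered sets that each held the treatments. With the letter as a replicate block, 33 probe sets were called, 9 higher and 24 lower. By the brightest probe set of each gene, these held 16 genes that fell (0.187% of 8549) and 6 that rose (0.0702%). Another 3 genes were called by a dimmer probe set alone, and 5 of the probe sets had no single gene symbol. Calls with the block depended on single arrays: 20 probe sets were called without control B, 16 without control C, 7 without combination B and 71 without combination A, and of the original 33 these kept 15, 16, 5 and 23.

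**Figure D1:**
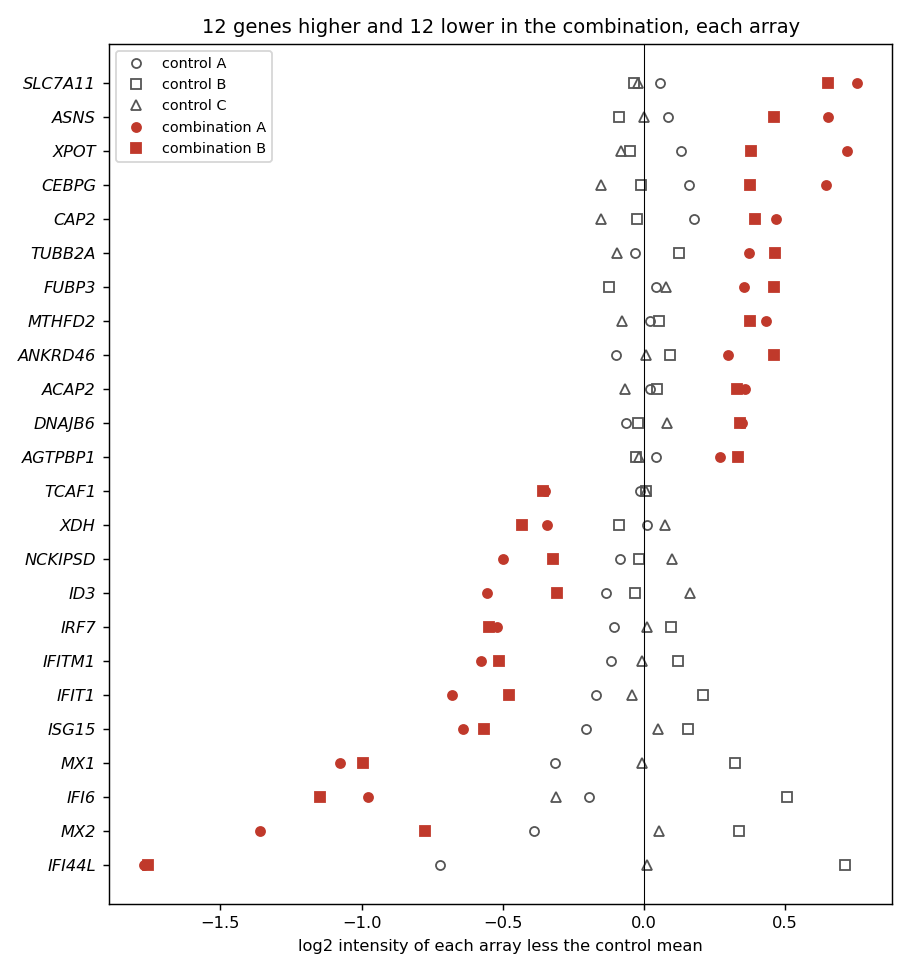
Log2 intensity of each control array (open) and combination array (filled) less the control mean, for the 12 genes higher and the 12 lower with the smallest p among genes whose arrays did not overlap and whose difference had 1 direction within letters A and B. IFI44L stands farthest out, with both combination arrays near 5.0 against controls at 6.05, 7.48 and 6.78; these genes were chosen for this pattern.

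IFI44L, an interferon-induced gene linked to antiviral defence, was at 6.05, 7.48 and 6.78 in control A, B and C and at 5.00 and 5.01 in combination A and B. The controls were spread over more than 1 log2 unit, while both combination arrays were close together below all of them. The difference was -1.76 (SE 0.32, 3.4-fold lower, adjusted p = 0.168), with -1.05 within letter A and -2.47 within letter B, and with the replicate block its adjusted p was 0.00283. MX1, a dynamin-like GTPase that blocks many viruses, was at 8.63, 9.27 and 8.94 in controls and at 7.87 and 7.95 in the combination. Its relative MX2 was at 6.49, 7.21 and 6.93 and at 5.52 and 6.10. For both, each combination array lay below the lowest control, and the differences were -1.04 (SE 0.21, 2.05-fold) and -1.07 (SE 0.23, 2.09-fold). MX1 and MX2 fell with the block at adjusted p values of 0.00111 and 5.51e-05, and MX2 was the steadier of the pair between letters, at -0.97 within A and -1.11 within B.

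IFI6, an interferon-induced membrane protein, was at 8.49, 9.19 and 8.37 in controls and at 7.71 and 7.54 in the combination. Control B was the highest array, and the difference of -1.06 (SE 0.24) stood beside -0.78 within A and -1.65 within B. IFI6 fell with the block at an adjusted p of 0.0032. OAS1, which makes the oligoadenylates that activate RNase L, was read by 2 probe sets. The brighter was at 6.88, 7.93 and 7.37 in controls and at 6.30 and 6.64 in the combination, a difference of -0.93 (SE 0.26). The other gave -1.16 (SE 0.26), with -1.10 within A and -1.11 within B, and had the smallest adjusted p of all probe sets with the block, 1.1e-05. Both probe sets fell with the block, so they showed the same direction for this gene.

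IRF7, the transcription factor that amplifies type I interferon production, had tight values: 8.44, 8.64 and 8.56 in controls and 8.03 and 7.999 in the combination. Its difference of -0.53 (SE 0.08, 1.45-fold lower) was the largest relative to its error of the genes named here, with -0.41 within A and -0.64 within B. The adjusted p was 0.0962 without the block and 0.00683 with it. IFITM1, a membrane protein that restricts virus entry, was at 10.27, 10.50 and 10.38 and at 9.81 and 9.87, a difference of -0.54 (SE 0.09) with the same adjusted p values of 0.0962 and 0.00683. ISG15, a ubiquitin-like modifier and the brightest of these genes, was at 11.47, 11.83 and 11.73 in controls and at 11.04 and 11.11 in the combination. IFIT1, which binds foreign RNA ends, was at 9.56, 9.94 and 9.69 and at 9.05 and 9.25. Groups did not overlap for any of these 4 genes. This was a condition of their choice by smallest p, as it was for IFI44L, MX1, MX2 and IFI6. Over all genes, 14.9% had both combination arrays below all controls. ISG15 and IFIT1 differed by -0.60 (SE 0.12) and -0.58 (SE 0.12), and fell with the block at adjusted p values of 0.0153 and 0.00458.

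The other genes of this list that fell with the block were IFIT3 (-0.63), IFI27 (-0.62), IFI35 (-0.54), IFI44 (-0.75) and SP110 (-0.62), which made 14 of its 35 measured members, against 0.187% of all genes. All 4 probe sets that carry the symbol of SP110, a nuclear body protein, were lower, between -0.80 and -0.39. TRIM14, an adaptor of antiviral signalling, and TNFSF10, the death ligand TRAIL, also fell with the block and are in no count of this list. TNFSF10 was at 6.05, 6.79 and 6.85 in controls and at 5.53 and 5.88 in the combination, a difference of -0.86 (SE 0.21). Its 2 dimmer probe sets were also lower, at -0.56 and -0.32, but there the arrays of the groups overlapped. TRIM14 differed by -0.46 (SE 0.14).

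Of the 35 interferon-stimulated genes measured, 34 had a lower mean and 1, IRF1, was at 0.02. For 25 of the 35, both combination arrays lay below all 3 controls, against 14.9% of all genes, and 30 were lower within A and within B, against 29.6% of all genes. The median difference was -0.53, against -0.02 over all genes, and was -0.25 within letter A and -0.63 within letter B. The list's mean was 7.84, 8.37 and 8.10 in control A, B and C and 7.51 and 7.64 in combination A and B, so the controls spanned 0.53 log2 units with B the highest and A the lowest. Without control B the median was -0.35. OAS2, a further oligoadenylate synthetase, shows how uneven the letters were: 6.61, 8.07 and 7.34 in controls and 6.61 and 6.52 in the combination, which is 0.00 within A and -1.55 within B. IRF9, the DNA-binding part of the interferon factor, was at 8.68, 9.08 and 8.72 and at 8.37 and 8.47, with no overlap, and did not pass with the block (adjusted p = 0.122). In bulk RNA, fewer cells with a transcript and less of it per cell cannot be told apart.

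The immunoproteasome and antigen presentation list shares PSMB9 and TAP1 with the interferon list. Of its 14 genes measured, 11 were lower and 3 higher, with a median of -0.18 (-0.01 within A, -0.26 within B) and 0 called in either fit. PSMB9, an inducible proteasome subunit, was at 6.83, 7.88 and 7.53 in controls and at 6.60 and 7.21 in the combination, a difference of -0.50 (SE 0.31) with overlap. PSMB8 and TAP2 differed by -0.37 (SE 0.18) and -0.34 (SE 0.21), also with overlap. B2M, the light chain of HLA class I, was at 11.80, 11.996 and 11.99 and at 11.86 and 11.83, a difference of -0.08 (SE 0.10). Among interferon list members typical of interferon gamma, IRF1 was at 0.02, GBP2 at -0.07, GBP1 at -0.25, TAP1 at -0.27 and PSMB9 at -0.50. None of these passed in either fit.

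**Figure D2:**
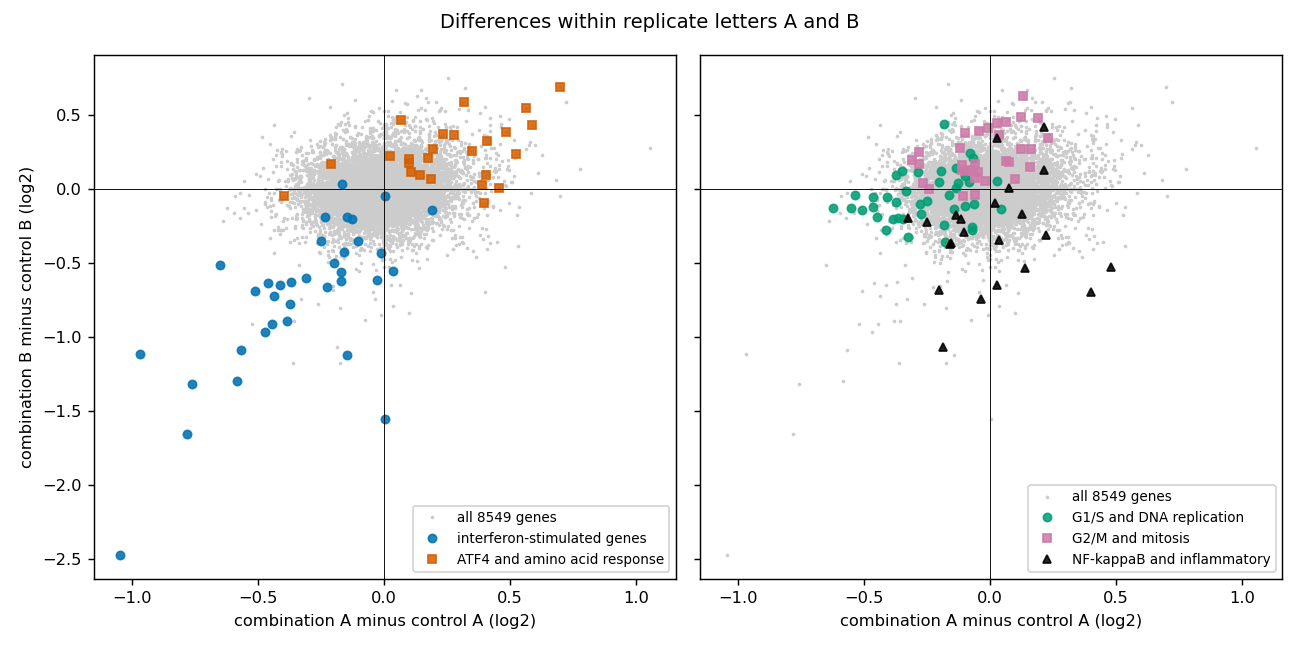
Difference of combination A from control A (horizontal) against that of combination B from control B (vertical), both in log2 units, for all 8549 genes (grey) and for 5 gene lists (colours). Interferon-stimulated genes reach farther down in letter B (median -0.63) than in letter A (-0.25), 22 of 25 ATF4 genes lie above 0 in both, and the G2/M genes have a median of 0.18 in letter B and -0.05 in letter A.

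Of 25 members of the ATF4 group measured, 22 were higher within both letters, against 22.2% of all genes, 1 was lower in both, and 3 passed with the block, against 0.0702% of all genes. SLC7A11, the cystine importer that feeds glutathione synthesis, was at 6.46, 6.37 and 6.39 in controls and at 7.16 and 7.06 in the combination. All 5 values kept to their own group by a wide margin, though no overlap was a condition of its choice by smallest p. The difference was 0.70 (SE 0.11, 1.63-fold higher), almost equal within A (0.70) and B (0.69), at an adjusted p of 0.0962 without and 0.00683 with the block. Its dimmer probe set gave 0.16 (SE 0.10). ASNS, asparagine synthetase, whose promoter is printed above, was at 9.25, 9.08 and 9.17 and at 9.82 and 9.63, a difference of 0.56 (SE 0.10) with 0.56 within A and 0.55 within B. XPOT, the exportin that carries tRNA out of the nucleus, was at 8.76, 8.58 and 8.55 in controls and at 9.35 and 9.01 in the combination, a difference of 0.55 (SE 0.11). These 3 genes rose with the replicate block, ASNS and XPOT at adjusted p values of 0.0112 and 0.0142, and 0 of the list's 25 measured members passed without it.

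CEBPG, a CEBP factor that pairs with ATF4, was at 7.41, 7.24 and 7.10 in controls and at 7.90 and 7.62 in the combination, a difference of 0.51 (SE 0.11). MTHFD2, a mitochondrial enzyme of folate metabolism, was at 9.42, 9.46 and 9.33 and at 9.83 and 9.78, a difference of 0.40 (SE 0.08). In serine synthesis, PSPH differed by 0.44 (SE 0.10) and PHGDH by 0.31 (SE 0.13), and for all 4 genes the groups did not overlap. None of them passed the test with the block, CEBPG at an adjusted p of 0.0844 and PSPH at 0.0714. ATF4 itself, whose control is largely translational, was at 10.30, 10.18 and 10.23 and at 10.47 and 10.39, a difference of 0.20 (SE 0.07). DDIT3, the stress factor CHOP, was at 6.88, 6.81 and 6.90 in controls and at 7.28 and 6.72 in the combination, higher in letter A and lower in letter B.

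Of the 25 measured members, 23 had a higher mean and 2, ATF5 at -0.13 and NUPR1 at -0.05, a lower one. For 18 of them both combination arrays lay above all controls, against 9.7% of all genes. The median difference was 0.25, with 0.28 within A and 0.23 within B, and the list's mean was 7.62, 7.53 and 7.55 in the controls against 7.88 and 7.78 in the combination. Unlike the interferon list, the controls here lay within 0.09 log2 units of each other. Cytosolic tRNA synthetases, some of which are known ATF4 targets, were higher for 10 of 15 genes with a median of 0.18 (0.19 within A, 0.06 within B). WARS1 was at 7.92, 8.06 and 7.94 in controls and at 8.32 and 8.27 in the combination, and IARS1 at 9.97, 9.93 and 9.91 and at 10.35 and 10.13, both without overlap. Endoplasmic reticulum chaperones had a median of -0.06, with 13 of 17 genes lower, among them MANF at -0.20 (SE 0.08), and 4 higher. XBP1, a factor of the unfolded protein response, was at 0.19 (SE 0.11). EDEM1 at 0.195 (SE 0.07) and DNAJB9 at 0.19 (SE 0.08) were higher without overlap, but the dimmer probe set of DNAJB9 gave 0.05, with overlap. Of the 17 chaperone list genes, 3 were higher and 4 lower without overlap, against 9.7% and 14.9% of all genes.

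The other 3 genes rose with the block, and all 3 had a single direction within A and B, which a call with the block favours. PTGER4, a receptor for prostaglandin E2, was at 5.67, 6.21 and 5.54 in controls and at 6.39 and 6.79 in the combination. Both combination arrays lay above the highest control, and the difference was 0.79 (SE 0.19, 1.73-fold higher), at an adjusted p of 0.3 without and 0.0032 with the block. Its dimmer probe set did not follow, at -0.08 (SE 0.11). DNAJC6, auxilin, which helps to strip clathrin from vesicles, was at 6.68, 6.36 and 6.31 and at 7.18 and 6.84, a difference of 0.56 (SE 0.15, adjusted p = 0.33 without and 0.0227 with the block), while a second probe set near the floor of the array gave -0.12. DSC3, a desmosomal cadherin, was at 5.72, 5.19 and 5.59 in controls and at 6.12 and 5.75 in the combination. The margin between its highest control and its lowest combination array was small. Its adjusted p was 0.571 without and 0.031 with the block, and its 2 probe sets gave 0.43 (SE 0.18) and 0.39 (SE 0.19).

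In the prostaglandin and leukotriene list, PTGER4 was the 1 gene of 25 that passed with the block, against 0.0702% of all genes, and 0 passed without it, while 10 members were higher and 15 lower, with a median of -0.04. PTGS2, which encodes cyclooxygenase-2, the target of nimesulide, was low on every array, at 3.27, 3.51 and 3.40 in controls and at 3.19 and 3.27 in the combination, below the array medians. Its difference was -0.17 (SE 0.09). PTGS1, the constitutive cyclooxygenase, was at 5.23, 4.94 and 5.36 and at 5.22 and 5.32, with overlap. HPGD, which inactivates prostaglandins, differed by -0.41 (SE 0.18), with overlap. Its dimmer probe sets gave -0.19, -0.20 and -0.20, also with overlap.

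VEGFA, the vascular growth factor, was read by 4 probe sets that gave different answers. A single probe set passed with the block (adjusted p = 0.00244), at 5.31, 5.16 and 5.31 in controls and at 5.93 and 5.83 in the combination, a difference of 0.61 (SE 0.10). The brightest gave 0.16 (SE 0.08), and the others 0.28 and -0.03. TANK, which was chosen after its values were seen, and KLK10 likewise passed with the block by a dimmer probe set only, at 0.46 and -0.48, where their brightest gave 0.16 and -0.26. Whether probe sets of a gene read different transcripts was not tested.

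**Figure D3:**
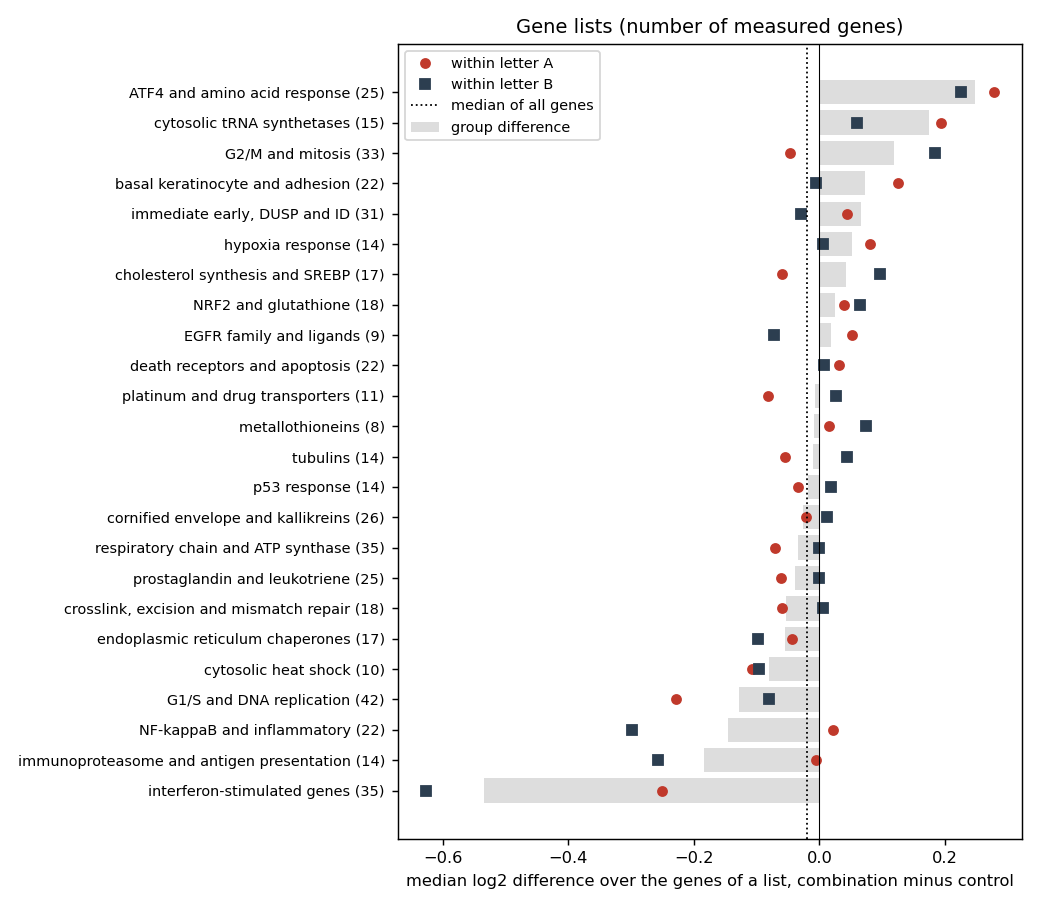
Median log2 difference of each gene list, combination minus control, over its measured genes (grey bars), with the same median within letter A (circles) and within letter B (squares); the dotted line is the median of all genes at -0.02. The interferon list lies lowest at -0.53 and the ATF4 list highest at 0.25, and several lists, such as G2/M and NF-kappaB, have letters on opposite sides of 0.

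Genes of the cell cycle differed by small amounts and 0 passed in either fit. Of 42 genes of G1/S and DNA replication, 38 had a lower mean, 18 had both combination arrays below all controls (14.9% of all genes) and 26 were lower within both letters (29.6% of all genes), with a median of -0.13 (-0.23 within A, -0.08 within B). MCM5, a subunit of the replicative helicase, was at 8.26, 8.06 and 8.11 in controls and at 7.85 and 7.79 in the combination, a difference of -0.33 (SE 0.11). CCNE1, cyclin E1, was at 6.44, 6.43 and 6.31 and at 6.12 and 6.10, almost the same step within A (-0.32) and B (-0.33). Both genes kept their groups apart without reaching the threshold, at adjusted p values of 0.484 and 0.33. PCNA, the sliding clamp, differed by -0.18 (SE 0.07) and FEN1, a flap nuclease, by -0.62 within A but -0.13 within B.

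Genes of G2/M and mitosis had a higher mean in 25 of 33 cases, but the letters disagreed. The median was -0.05 within A and 0.18 within B, and without combination B the group median of 0.12 was at -0.0037. DLGAP5, a spindle protein, was at 8.40, 8.30 and 8.37 in controls and at 8.53 and 8.92 in the combination, and NEK2, a centrosomal kinase, at 8.75, 8.73 and 8.81 and at 8.94 and 9.21. In both, combination B was the highest array. TOP2A, topoisomerase II alpha, differed by 0.12 within A and 0.49 within B, and AURKA, aurora kinase A, by 0.06 and 0.45.

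The p53 response, which DNA crosslinks can induce, showed no member that passed: 6 of 14 were higher and 8 lower, with a median of -0.02, the same as over all genes. CDKN1A, the cell cycle inhibitor p21, was at 8.25, 8.13 and 7.98 in controls and at 8.21 and 8.24 in the combination, a difference of 0.11 (SE 0.08). MDM2, the ubiquitin ligase of p53, was low, at 4.22, 4.16 and 4.39 and at 4.12 and 4.16. GADD45A was at 9.20, 9.61 and 8.99 in controls and at 9.44 and 9.47 in the combination, within the range of the controls. Of 18 genes of crosslink, excision and mismatch repair, 12 were lower, against 4939 of 8549 genes. Their median was -0.05, FANCC lying lowest at -0.22 (SE 0.08).

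NF-kappaB and inflammatory genes were lower in 16 of 22 cases, with a median of -0.15, against -0.30 within letter B, 0.02 within letter A and -0.03 without control B. CXCL8, the chemokine interleukin 8, was at 4.29, 5.50 and 4.54 in controls and at 4.11 and 4.43 in the combination. NFKBIA, the inhibitor that NF-kappaB itself induces, was at 8.48, 9.21 and 8.71 and at 8.44 and 8.47. Control B was the highest array for both, and neither passed in either fit. Of the 6 members that were higher, IL1RN differed most, by 0.29 (SE 0.08) without overlap, and did not pass either. In this list 2 genes were higher and 5 lower without overlap, against 9.7% and 14.9% of all genes. The dimmer probe sets of IL1RN gave -0.08 to 0.02, with overlap.

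Among genes of the keratinocyte surface, DSP, the desmosomal plaque protein, was at 8.59, 8.48 and 8.53 in controls and at 9.01 and 8.82 in the combination, a difference of 0.38 (SE 0.14). SPRR1B, a cornified envelope precursor, was at 5.48, 5.91 and 5.50 and at 6.54 and 6.19, a difference of 0.73 (SE 0.20) that was 1.06 within A and 0.28 within B. KRT5 was at 7.99, 7.65 and 7.81 in controls and at 7.40 and 7.61 in the combination, and KRT14 at 5.51, 4.60 and 5.40 and at 5.21 and 5.21. DSP, SPRR1B and KRT5 kept their groups apart, KRT14 did not, and none of the 4 passed in either fit. Over all genes, 9.7% had both combination arrays above all controls and 14.9% had both below. For the 26 genes of the cornified envelope and kallikreins the median was -0.03, with 1 higher and 4 lower without overlap. For the 22 of basal keratinocytes and adhesion it was 0.07, with 6 higher and 4 lower without overlap.

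The remaining genes with the smallest p values did not pass with the block. Higher were TUBB2A, a beta-tubulin, by 0.42 (SE 0.08), CAP2, a regulator of actin, by 0.43 (SE 0.09), FUBP3 by 0.41 (SE 0.09), ANKRD46 by 0.38 (SE 0.08), ACAP2 by 0.35 (SE 0.08), the co-chaperone DNAJB6 by 0.34 (SE 0.08) and AGTPBP1, which trims glutamates from tubulin, by 0.30 (SE 0.07). Lower were TCAF1 at -0.35 (SE 0.07), NCKIPSD at -0.41 (SE 0.08), XDH, the xanthine dehydrogenase of purine breakdown, at -0.39 (SE 0.08) and ID3, an inhibitor of helix-loop-helix factors, at -0.43 (SE 0.10). TCAF1 was at 7.12, 7.14 and 7.14 in controls and at 6.79 and 6.78 in the combination, but its dimmer probe sets gave 0.21, -0.13 and 0.03. The second probe set of CAP2, almost as bright as the first, gave 0.04 (SE 0.09), with overlap.

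**Figure D4:**
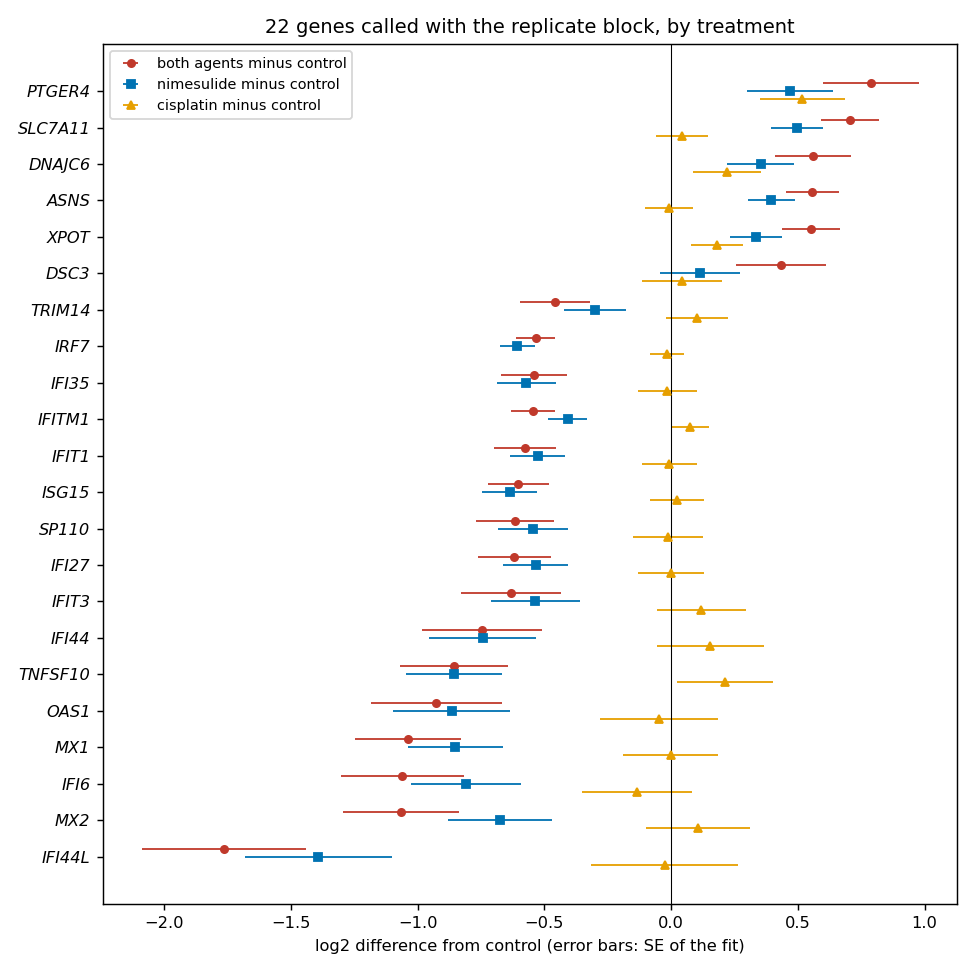
Log2 difference from control (horizontal, bars are the SE of the fit) with both agents, with nimesulide alone and with cisplatin alone, for the 22 genes called with the replicate block for the combination. All 3 contrasts share the same control arrays; IFI44L was at -1.76 with both agents, at -1.39 with nimesulide and at -0.02 with cisplatin.

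Setting the combination beside each single agent asks what the second drug adds. Against nimesulide alone, 0 of 16383 probe sets (0%) were called without or with the block, the smallest adjusted p being 0.672 and 0.41, and 1113 passed at an unadjusted p under 0.05. Against cisplatin alone, 0 were called without the block (0%; smallest adjusted p 0.0746, 1162 at an unadjusted p under 0.05) and 37 with it, 8 higher and 29 lower, which held 28 genes by their brightest probe set (0.328%). For the departure from the sum of the single agents on the log2 scale, 0 were called (0%) in either fit, with 748 at an unadjusted p under 0.05 and a smallest adjusted p of 0.963. A p that misses the threshold does not show that the treatments act alike: the median SE of the departure was 0.12 log2 units.

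Over the interferon list, the median difference from control was -0.44 with nimesulide, 0.00 with cisplatin and -0.53 with both, and 23 of 35 members stood below nimesulide, against 4719 of 8549 genes. All 35 stood below cisplatin, against 4359 of 8549 genes. IFI44L was -1.39 from control with nimesulide and -0.02 with cisplatin, and the combination stood -0.37 from nimesulide, with a 95% interval of -1.07 to 0.33. IRF7 was -0.61 from control with nimesulide and -0.02 with cisplatin, and the combination stood 0.07 from nimesulide (-0.09 to 0.24). MX2 showed the widest gap of the block-called interferon genes, at -0.39 from nimesulide (-0.88 to 0.10), an interval that includes 0.

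For ATF4 genes the combination stood above nimesulide in 20 of 25 members, against 3830 of 8549 genes, with a median of 0.10. SLC7A11 was 0.50 from control with nimesulide, 0.04 with cisplatin and 0.70 with both, so that the combination stood 0.21 above nimesulide (-0.04 to 0.46). ASNS was 0.40, -0.01 and 0.56 in the same order, and ATF4 0.04, -0.02 and 0.20. The departure from the sum was 0.17 for SLC7A11, 0.17 for ASNS and 0.18 for ATF4, and none passed. PTGER4 was 0.47 from control with nimesulide, 0.52 with cisplatin and 0.79 with both.

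For G2/M genes the median difference from control was 0.12 with cisplatin, 0.02 with nimesulide and 0.12 with both. Above nimesulide stood 28 of 33 members, against 3830 of 8549 genes, but the letters disagreed. The list's mean was 8.28 in combination A, below the nimesulide arrays at 8.31 to 8.33, and 8.56 in combination B. DLGAP5 was 0.34 from control with cisplatin, -0.04 with nimesulide and 0.37 with both, and the combination stood 0.41 above nimesulide (0.19 to 0.63, adjusted p = 0.707). G1/S genes had medians of -0.10 with nimesulide, -0.09 with cisplatin and -0.13 with both. NF-kappaB genes had medians of -0.01, 0.02 and -0.15, the letters differing as given above. Below nimesulide stood 18 of 22 members, against 4719 of 8549 genes, and below cisplatin 18, against 4359. By their brightest probe sets, CAP2, TCAF1 and NCKIPSD were nearer to control with either single agent than with both, although the other probe sets of CAP2 and TCAF1 differed from these as given above. They were chosen for their difference from control with both agents, so smaller differences with other treatments partly follow from that choice. CAP2 was 0.02 with nimesulide, 0.08 with cisplatin and 0.43 with both, TCAF1 -0.04, -0.18 and -0.35, and NCKIPSD -0.04, -0.09 and -0.41. Their departures from the sum, 0.34, -0.14 and -0.28, did not pass.

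**Figure D5:**
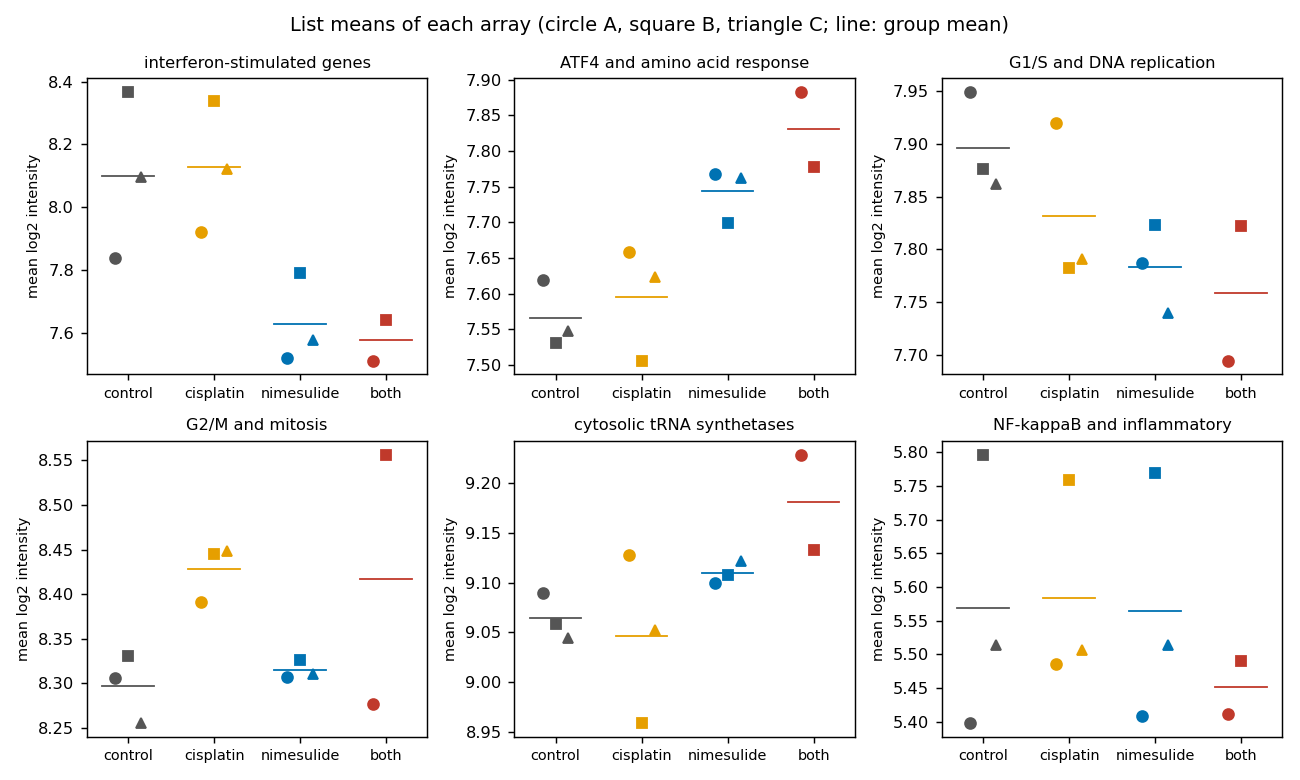
Mean log2 intensity over the genes of 6 lists on each of the 11 arrays, by treatment, with letters A (circle), B (square) and C (triangle) and the mean of each treatment as a line; axes do not start at 0. The interferon list runs from 7.84 to 8.37 in controls and is at 7.51 and 7.64 with both agents, and the 2 combination arrays lie far apart for G2/M genes.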

How the data were processed

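RNA of 11 SCC9 samples was measured on Affymetrix U133A arrays. Per the labels, the authors normalized them with RMA, and what was deposited is 1 log2 intensity for each probe set and array. RMA equalises the distributions of arrays, so a shift of all transcripts one way would not show, and it can give identical values to a probe set on several arrays (436 within letter A, 406 within B), which count as neither higher nor lower. The deposited protocol also gives RNA and cRNA amounts, which the authors wrote in other units and which were only listed. The RMA version is not given in the sources used here.

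All 16383 probe sets were fitted with limma 3.58.1 in R 4.3.3 (lmFit, eBayes), with 1 mean per treatment over 11 arrays and 7 residual degrees of freedom. Tests were two-sided with Benjamini-Hochberg adjustment over all probe sets, at 0.05. The annotation table gave 1 symbol to 14045 probe sets, several to 792 and none to 1546. A gene was represented by its brightest probe set (8549 genes). The number of arrays limits the precision (median SE 0.09). The labels speak of triplicate experiments, so p-values cover only the spread among these arrays, which may be technical. An exact permutation test of 2 against 3 arrays has 10 regroupings and a smallest doubled p of 0.2, so none was used.

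The deposited protocol lists RNA preparation in sets A, B and C. After removal of treatment means, the 15 same-letter pairs correlated at 0.08 to 0.36 and the 30 different-letter pairs at -0.25 to 0.14. Deviations from a treatment mean cancel out within the treatment, so the different-letter values partly mirror the same-letter ones and are no separate evidence. Same-letter pairs of control and combination were at 0.10 to 0.11. With the letter as a random block, the correlation within letters was 0.069. The letter was also fitted as a replicate block, as an alternative, and differences within letters are given beside the group difference.

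Members, lists and tests were chosen with earlier results of these data known. Of 621 genes in 29 lists, 508 were measured, that is, had a probe set with a single symbol among those used. Named genes were the 12 with the smallest p in each direction among genes with no overlap of arrays and 1 direction in both letters, all genes called with the block, the 4 farthest from 0 in each list, and 12 genes taken whatever their values, of which 1 is not reported here. Other list members are given with their values. Promoters were those with the largest difference in the interferon and ATF4 lists that have an entry in the RefSeq table, chromosome 8 left out. The fit was tested on simulated data.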

Additional observations from a re-analysis of the deposited data

How the results depend on the processing

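For the combination against control, the number of probe sets called was 33 with the replicate block, 7 with it in letters A and B only, 5 with an intensity trend and robust prior, 6 with the letter as a random block, and 0 to 1 when each array was left out in turn. It was 0 after quantile normalization, among probe sets above the median, in letters A and B without the block, and with the 5 arrays alone. Chosen after seeing the data, the block gave 45 in letters B and C only and 1 in letters A and C only, and 7 to 71 when each array was left out, where a lone combination array is assumed to vary like the other groups. The combination against cisplatin gave 37 with the replicate block, 9 with it in letters A and B, 2 after quantile normalization, 3 with trend and robust prior, and 0 to 4 when each array was left out. Against nimesulide, and for the departure from the sum, 0 were called under every alternative run. Of the 35 genes named for the smallest p or a call with the block, TCAF1 changed sign, at 0.04 when the median level of its probe sets on each array was compared. Of 142 named genes, 34 changed sign in at least 1 alternative, and the medians of 17 of 29 lists did, but not those of the interferon list (-0.60 to -0.35), the ATF4 list (0.19 to 0.33) or G1/S (-0.21 to -0.10). The causes were not tested. The number of arrays, 2 against 3, limits all comparisons.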

Other observations

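Other gene groups differed little between the combination and control, and none of the members given here passed in either fit. Of 17 genes of cholesterol synthesis 11 were higher, with a median of 0.04, while SREBF1, which drives lipid synthesis genes, was at 7.77, 7.17 and 7.65 in controls and at 7.17 and 7.01 in the combination, with overlap. SLC30A1, a zinc exporter that metal-responsive MTF1 induces, was at 7.52, 8.08 and 7.91 and at 8.14 and 8.31, above all controls, whereas the metallothionein MT2A differed by -0.06 (SE 0.12). HBEGF, a ligand of the EGF receptor, was at 7.38, 7.27 and 7.20 in controls and at 7.82 and 7.47 in the combination, again without overlap. A rise without overlap was seen for 9.7% of all genes. EGFR itself differed by 0.10 within A and -0.33 within B, beside a group difference of 0.28 (SE 0.29) in which control C was lowest at 7.32. Its dimmer probe sets ranged from -0.21 to 0.16.

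Genes that move or detoxify drugs were measured as well. SLC31A1, the copper transporter that can also carry cisplatin, was at 6.39, 6.37 and 6.32 in controls and at 6.53 and 6.64 in the combination, and ABCG2, a drug efflux pump, at 8.34, 8.42 and 8.29 and at 8.53 and 8.67. Both had the combination arrays above all controls, with differences of 0.22 (SE 0.08) and 0.25 (SE 0.08). Of 11 platinum and drug transporter genes, 2 were higher and 1 lower without overlap, against 9.7% and 14.9% of all genes. The median of these 11 was -0.01. GCLM, a subunit of the first enzyme of glutathione synthesis, differed by 0.28 (SE 0.12), and NQO1, another NRF2 target, by -0.13 (SE 0.08). Over 35 genes of the respiratory chain and ATP synthase the median was -0.03. Over 10 cytosolic heat shock genes it was -0.08, with 7 of these lower in both letters, against 29.6% of all genes.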
